A study of Mus musculus with 4 samples.

Results

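The MHC class I genes described here were the 10 genes H2-K1, H2-D1, H2-Q4, H2-Q5, H2-Q6, H2-Q7, B2m, Tap1, Tap2 and Nlrc5, which were found by gene symbol in an RNA-Seq table of 23552 genes from AML c-Kit+ cells. All 10 had a mean of at least 0.5 FPKM (sequenced fragments scaled by transcript length and by library size) over the 4 libraries, the minimum for testing, and 13736 genes in all passed it. The cells came from the bone marrow of moribund C57BL/6 mice bearing leukemia induced by MLL-AF9, a fusion of the MLL and AF9 genes. There were 2 libraries per group, all labelled RNA-seq batch 2. Control cells (replicates 3 and 4) carried the genotype control-eGFP overexpression, and SUV-OE cells (replicates 2 and 3) carried Suv39h1-eGFP overexpression, so that MLL-AF9 and eGFP were shared by the groups. Suv39h1, a methyltransferase that writes the repressive H3K9me3 mark, was expressed from an MSCV-IRES-EGFP vector in cells passaged through irradiated recipients, whose own c-Kit+ cells can remain. The libraries were made from enriched c-Kit+ cells, and the sources used here do not say whether eGFP was gated for them or how many mice each library held. The genes were selected with their difference between SUV-OE and control already known, so their fold changes are a description and no p-value is given for them.

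MHC class I molecules display peptides from inside the cell to CD8 T cells. A polymorphic heavy chain (H2-K1 and H2-D1 encode the classical mouse chains) pairs with the invariant light chain beta-2-microglobulin, the product of B2m. Peptides made by the proteasome are carried into the endoplasmic reticulum by the TAP transporter, a heterodimer of Tap1 and Tap2, and Nlrc5 is the transactivator that acts at class I promoters. The H2-Q genes lie downstream of H2-D1 and encode nonclassical chains; H2-Q6 and H2-Q7 are sources of the Qa-2 antigen. Interferons raise most genes of this pathway.

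The stretches upstream of the transcription start are shown because these heavy chain genes share a compact promoter, yet differed in how much their level changed. RefSeq starts (GRCm38.p6, the mm10 build) were at hand for 7 of the 10 genes, B2m, H2-K1, H2-D1, H2-Q4, H2-Q6, H2-Q7 and Tap1. Capitals mark matches to GGGGATTCCC, GGGGATTTCC or GGGAAAGTCCC (kappaB-like), to GTTTCACTTC or GAAANTGAAA (interferon response-like), to TGACG (part of a cyclic AMP response element) and to CCAAT, all searched on both strands. ATTGG is CCAAT on the opposite strand, and no match overlapped another. The letters of all but TGACG and CCAAT were cut from the promoters of H2-K1, H2-Q4 and B2m after they had been seen, so these 3 genes match by construction.
H2-K1, chr17:34000355-34000462, minus strand: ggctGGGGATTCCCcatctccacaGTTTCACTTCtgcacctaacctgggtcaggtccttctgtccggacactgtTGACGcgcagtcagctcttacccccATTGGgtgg
H2-Q4, chr17:35379439-35379570, plus strand: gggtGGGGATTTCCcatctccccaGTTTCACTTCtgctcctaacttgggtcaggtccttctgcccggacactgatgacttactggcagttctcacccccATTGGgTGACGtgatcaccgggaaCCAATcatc
H2-Q6, chr17:35424673-35424803, plus strand: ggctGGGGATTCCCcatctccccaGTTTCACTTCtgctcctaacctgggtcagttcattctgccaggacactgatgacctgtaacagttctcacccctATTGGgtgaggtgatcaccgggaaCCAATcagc
H2-Q7, chr17:35439018-35439147, plus strand: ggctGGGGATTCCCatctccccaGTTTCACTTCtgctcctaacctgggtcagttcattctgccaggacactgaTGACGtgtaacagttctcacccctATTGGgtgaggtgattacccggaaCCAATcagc
B2m, chr2:122147544-122147642, plus strand: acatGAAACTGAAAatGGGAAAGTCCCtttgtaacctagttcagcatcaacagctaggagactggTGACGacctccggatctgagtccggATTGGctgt

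Within the 250 bases before the start, GGGGATTCCC matched in H2-K1, H2-D1, H2-Q6 and H2-Q7 and in 0.0852% of 32851 promoters searched. GGGGATTTCC matched in H2-Q4 alone among the 7 genes and in 0.0944% of promoters, and GGGAAAGTCCC in B2m alone and in 0.0639%. GTTTCACTTC matched in the 5 heavy chain genes with an entry and in 0.11% of promoters. GAAANTGAAA matched in B2m and in 0.682% of promoters. The shorter TGACG was found in 6 of the 7 genes and in 17.8% of promoters, and CCAAT in 7 of 7 and in 33.8%. H2-Q6 was the gene without a TGACG match in this window. Between the kappaB-like match and the first ATTGG, with 4 flanking bases on each side, H2-Q6 and H2-Q7 were 98.1% identical (105 of 107 aligned positions). In the same stretch H2-Q4 was 88.9% identical to either of them, and H2-K1 85.2%. In Tap1 only CCAAT and TGACG matched. A match describes letters and not a bound site.

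The read total behind the FPKM scale, recovered from the steps between values, ranged from 16873770 to 19453058 per library. Reads computed at GENCODE M21 exon lengths summed to 20085762 to 23561149, including genes whose values were not whole reads at that length. A count of 3 reads on 1 kb of exons was worth 0.154 to 0.178 FPKM. The targeted gene Suv39h1 was at 12.4 FPKM in each control sample and reached 75.3 and 81.2 FPKM with SUV-OE. Kit, which encodes the marker on which cells were enriched, had 20.4 and 19.2 FPKM in control cells and 28.6 and 25.4 FPKM in SUV-OE cells. Ptprc and Mpo, which mark hematopoietic and myeloid progenitor cells, were expressed in all 4 libraries. SUV-OE replicate 3 stood apart in the heat-shock gene Hspa1b, named after its values were seen, with 166 FPKM against 18.03 in SUV-OE replicate 2 and 2.29 and 0.782 in control. With 2 libraries per group the smallest two-sided exact permutation p is 0.333, so single ratios were not tested.

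**Figure D1:**
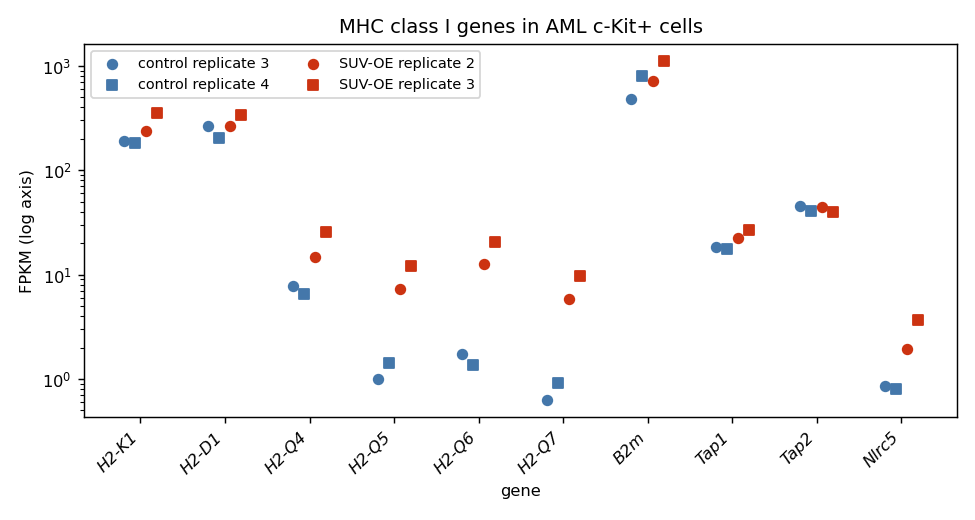
FPKM of each MHC class I gene (log axis) in the 2 control libraries (blue) and the 2 SUV-OE libraries (red), one point per library. The H2-Q genes and Nlrc5 separate by group, while H2-D1, B2m and Tap2 overlap.

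The mean FPKM of each of the 6 heavy chain genes was higher in SUV-OE than in control, with the largest ratios in H2-Q5, H2-Q6 and H2-Q7. In bulk samples fewer cells of a type and less RNA per cell cannot be told apart. SUV-OE was above control without overlap in 7 of the 10 genes, namely H2-K1, H2-Q4, H2-Q5, H2-Q6, H2-Q7, Tap1 and Nlrc5, as was the case in 25.4% of the 13736 tested genes. Since the genes were chosen on this contrast, nothing is read from that count. SUV-OE was below control without overlap in 0 of the 10. Their median log2 fold change was 0.83 on the log2(FPKM + 1) scale, beside -0.02 for all tested genes. The log2 fold change was at least 1 in 5 of the 10 genes, as in 2.95% of tested genes, and at least 2 in 3 of them, as in 0.459%. This scale understates the change of genes with a low FPKM.

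H2-K1 (ENSMUSG00000061232, chromosome 17, 33996017 to 34000347 in mm10) encodes a classical heavy chain and had 190.3 and 182 FPKM in control cells and 237 and 354 FPKM in SUV-OE cells. The groups did not overlap, and the lower SUV-OE library was 1.24 times the higher control library. Its log2 fold change was 0.64 ± 0.24 (SE, n = 2 per group).

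H2-D1 (ENSMUSG00000073411, chromosome 17, 35262730 to 35267499) encodes the other classical chain and had 267 and 201 FPKM in control cells and 266 and 339 FPKM in SUV-OE cells. Here the groups overlapped, because control replicate 3 was level with SUV-OE replicate 2. The log2 fold change of H2-D1 was 0.37 ± 0.23 (SE).

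H2-Q4 (ENSMUSG00000035929, chromosome 17, 35379617 to 35385290) was the most highly expressed H2-Q gene, with 7.76 and 6.55 FPKM in control cells and 14.7 and 25.7 FPKM in SUV-OE cells. Its log2 fold change was 1.33 ± 0.28 (SE). The antisense gene Gm11131 overlaps 676 bases of it on the other strand, and the library kit does not mark strand, so reads of the pair cannot be told apart there.

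H2-Q5 (ENSMUSG00000055413, chromosome 17, 35394126 to 35397800) is annotated as a polymorphic pseudogene. It had 1.002 and 1.42 FPKM in control cells and 7.30 and 12.2 FPKM in SUV-OE cells, from 31 and 38 reads in control cells and 206 and 345 in SUV-OE cells. The log2 fold change was 2.25 ± 0.26 (SE).

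H2-Q6 (ENSMUSG00000073409, chromosome 17, 35424850 to 35430055) had the largest fold change of the 10 genes. Its FPKM was 1.75 and 1.36 in control cells and 12.6 and 20.7 in SUV-OE cells, and the mean in SUV-OE was 10.7 times that in control. These values came from 71 reads (95% exact Poisson interval 55.5 to 89.6) and 48 reads (35.4 to 63.6) in control cells and from 466 and 768 reads in SUV-OE cells. The lower SUV-OE library was 7.20 times the higher control library. The log2 fold change of H2-Q6 was 2.75 ± 0.25 (SE), the 23rd largest of all tested genes.

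H2-Q7 (ENSMUSG00000060550, chromosome 17, 35439155 to 35443773) had 0.627 and 0.917 FPKM in control cells and 5.85 and 9.77 FPKM in SUV-OE cells, and the mean in SUV-OE was 10.1 times that in control. It had 52 and 66 reads in control cells and 443 and 741 in SUV-OE cells. Its log2 fold change was 2.28 ± 0.26 (SE). H2-Q6 and H2-Q7 were low in each control library and did not overlap with either SUV-OE library.

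**Figure D2:**
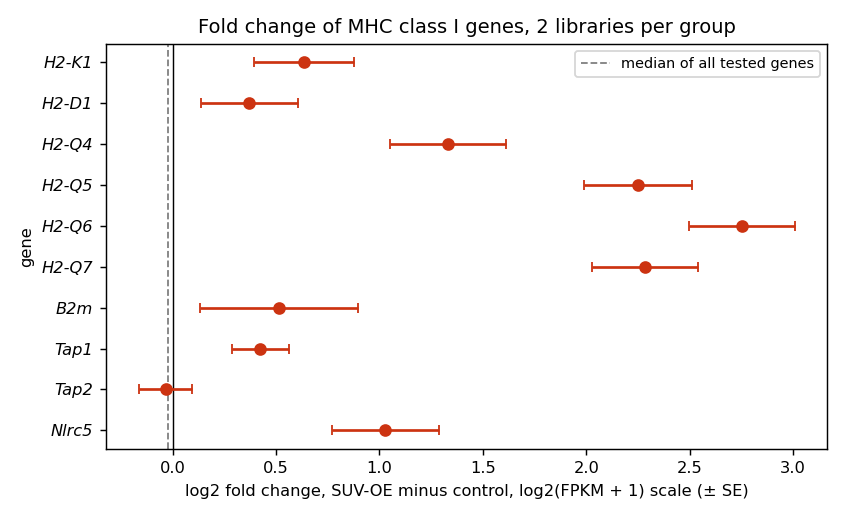
Log2 fold change (SUV-OE minus control, log2(FPKM + 1) scale) of the 10 genes with the standard error from limma, 2 libraries per group, and the median of all tested genes (dashed). H2-Q6 lies at 2.75, the classical genes H2-K1 and H2-D1 at 0.64 and 0.37, and Tap2 at -0.03.

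Because FPKM is scaled by length, the heavy chain levels can be summed within a library. The 4 H2-Q genes together had 11.1 and 10.2 FPKM in control cells and 40.4 and 68.4 FPKM in SUV-OE cells. Their share of the summed FPKM of the 6 heavy chain genes was 2.38% and 2.61% in control cells and 7.45% and 8.99% in SUV-OE cells. H2-K1 and H2-D1 together had 458 and 383 FPKM in control cells and 502 and 693 FPKM in SUV-OE cells, so the classical genes still made up most of the heavy chain signal in every library. The ratio of H2-K1 to H2-D1 was 0.712 and 0.902 in control cells and 0.889 and 1.04 in SUV-OE cells, and these ranges overlapped.

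**Figure D3:**
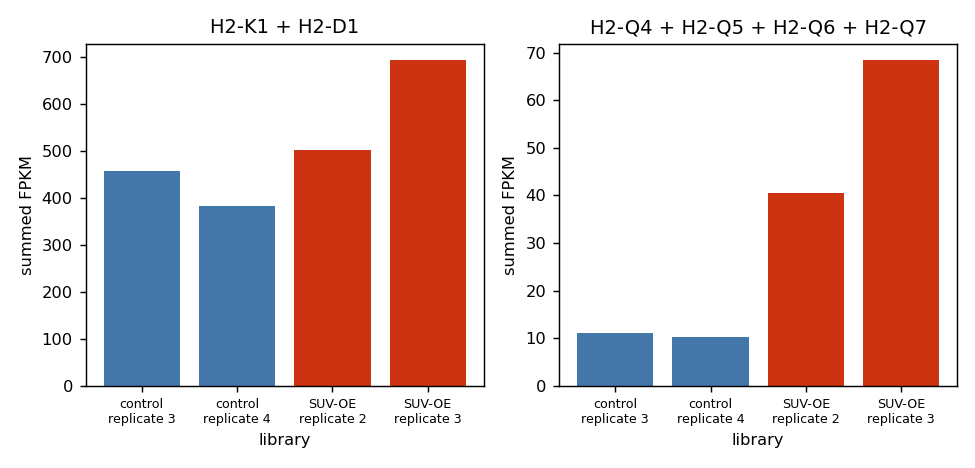
Summed FPKM per library of the classical heavy chain genes H2-K1 and H2-D1 (left) and of the 4 H2-Q genes (right), on linear axes from 0 that differ in scale. The H2-Q sum was 11.1 and 10.2 in control (blue) and 40.4 and 68.4 in SUV-OE (red).

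The H2-Q genes are close copies, and the values of one can hold reads of another. Of the 50-base windows in the GENCODE M21 transcripts of H2-Q4, H2-Q5, H2-Q6 and H2-Q7, 36.4%, 36.4%, 34.97% and 26.5% also occurred in a transcript of another gene. At the read length given by the study, 150 bases, the shares were 9.87%, 3.86%, 5.99% and 5.90%, and they were 0% for H2-K1 and 1.35% for H2-D1. All 150-base windows that H2-Q6 shared were with H2-Q7, which were 116 windows, and all that H2-Q4 shared were with the overlapping Gm11131. The deposited FPKM of H2-Q4 to H2-Q7 and of H2-D1 were whole reads at the GENCODE M21 exon length, and those of H2-K1 and Nlrc5 were whole at another length. How reads that fit several genes were assigned is not given in the sources used here, so the split between H2-Q genes is uncertain. H2-Q7 also shared 148 windows of 150 bases with H2-Q10, outside the sum.

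B2m (ENSMUSG00000060802, chromosome 2, 122147686 to 122153083) encodes the light chain and had 483 and 802 FPKM in control cells and 711 and 1112 FPKM in SUV-OE cells. The groups overlapped, since control replicate 4 was above SUV-OE replicate 2. Its log2 fold change was 0.51 ± 0.38 (SE), with the largest standard error of the 10 genes. The ratio of B2m to the summed heavy chain FPKM was 1.03 and 2.04 in control cells and 1.31 and 1.46 in SUV-OE cells, and these ranges overlapped. The protein-coding gene Patl2 spans all 5398 bases of B2m on the other strand.

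Tap1 (ENSMUSG00000037321, chromosome 17, 34187553 to 34197225) had 18.3 and 17.6 FPKM in control cells and 22.2 and 26.9 FPKM in SUV-OE cells, with no overlap and a log2 fold change of 0.43 ± 0.14 (SE). Tap2 (ENSMUSG00000024339, chromosome 17, 34203527 to 34216321) had 44.97 and 41.1 FPKM in control cells and 44.7 and 39.4 FPKM in SUV-OE cells. Its log2 fold change was -0.03 ± 0.13 (SE), and its sign was not stable, from -0.12 to 0.12 over the alternative settings (0.12 after quantile normalization, 0.06 with limma-voom). The ratio of Tap2 to Tap1 was 2.46 and 2.33 in control cells and 2.01 and 1.47 in SUV-OE cells. Each subunit overlaps a gene on the opposite strand, Tap1 by 212 bases with Psmb9 and Tap2 with Gm20496 and Gm15821.

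Nlrc5 (ENSMUSG00000074151, chromosome 8, 94434356 to 94527272), the transactivator, had 0.854 and 0.806 FPKM in control cells and 1.95 and 3.71 FPKM in SUV-OE cells. The mean in SUV-OE was 3.41 times that in control, and the log2 fold change was 1.03 ± 0.26 (SE). At the shortest exon length that made its values whole, Nlrc5 had 127 and 104 reads in control cells and 265 and 505 in SUV-OE cells. It overlaps 748 bases of 9330175E14Rik on the other strand.

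The SUV-OE libraries also differed from each other. In 9 of the 10 genes SUV-OE replicate 3 was above SUV-OE replicate 2, with Tap2 the exception. The ratio of replicate 3 to replicate 2 was from 1.64 to 1.75 in the 4 H2-Q genes, 1.495 in H2-K1, 1.56 in B2m and 1.90 in Nlrc5. Over all tested genes with a value in replicate 2, the median of this ratio was 1.002, and it ran from 0.663 at the 5th to 1.56 at the 95th percentile. Without SUV-OE replicate 3 the median log2 fold change of the 10 genes was 0.52, and H2-Q6 was at 2.41, H2-Q7 at 1.96, H2-Q5 at 1.92, H2-Q4 at 0.95 and Nlrc5 at 0.69.

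Along chromosome 17, the 4 H2-Q genes span 64.2 kb. Within 200 kb on either side of them, 15 tested genes that were not among the 10 had a median log2 fold change of 0.49, and without overlap 10 of them were higher and 2 lower in SUV-OE, beside 25.4% and 28.4% of all tested genes. The 10 include Gm11131, whose reads cannot be told apart from those of H2-Q4 where they overlap. The 1 gene of these with a limma adjusted p-value under 0.05 (1.29% of all tested genes had one) was the microRNA gene Mir6975, which lies within Ddx39b, had 0 reads in control and rested on 2 reads in each SUV-OE library. Of the 9 protein-coding neighbours, 0 passed and 5 had an unadjusted limma p-value under 0.05, which 10.3% of all tested genes had in the higher and 10.4% in the lower direction. The protein-coding neighbours that did not overlap between groups were Ltb, Tnf, Nfkbil1, Gm16181, Atp6v1g2, Tcf19 and Cchcr1, with values from 0.21 to 1.08 higher in SUV-OE on the log2 scale, and Ddx39b at -0.19. The spans of Gm16181 and Atp6v1g2 overlap that of Nfkbil1, so these are not separate loci. Gm16181, at 1.08, rested on 7 and 9 reads in control cells and 35 and 22 in SUV-OE cells. Tcf19, 87.9 kb from the start of H2-Q6, had 1.67 and 2.23 FPKM in control cells and 4.55 and 4.58 FPKM in SUV-OE cells (log2 fold change 0.92 ± 0.15 SE, limma adjusted p = 0.0757). The next H2-Q relatives, H2-Q1 and H2-Q10, stayed at or under 0.104 FPKM in every library and were not tested.

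**Figure D4:**
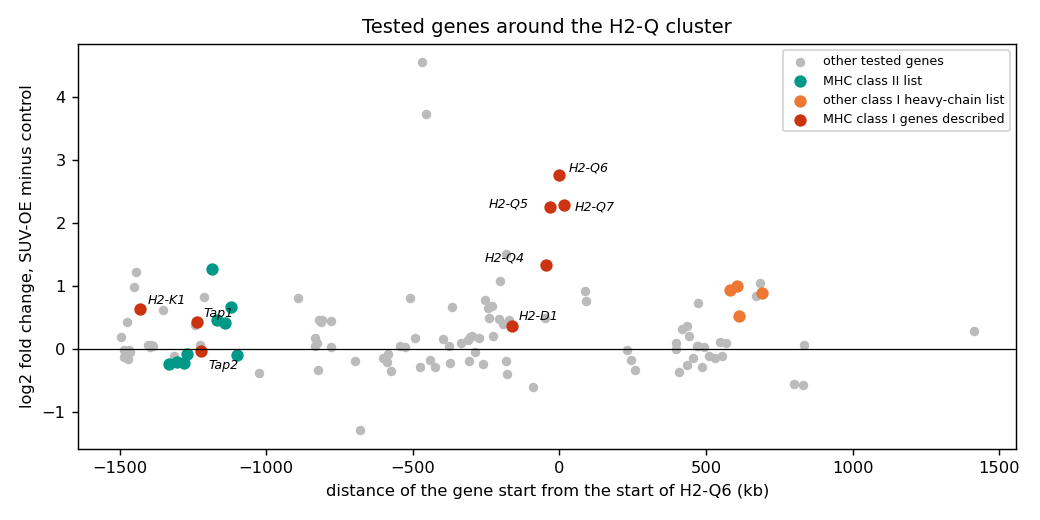
Log2 fold change (SUV-OE minus control) of tested chromosome 17 genes against the distance of their start from that of H2-Q6 in kb, one point per gene. H2-Q5, H2-Q6 and H2-Q7 lie above 2, as do Hspa1a and Hspa1b, at 3.72 and 4.54.

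Other class I heavy chain genes outside the 10 were compared with the limma test over all 13736 genes. Of 19 listed genes, 13 were measured and 9 were tested. Without overlap, 8 of the 9 were higher in SUV-OE and 1, Hfe, was lower (limma adjusted p = 0.173), beside 25.4% and 28.4% of all tested genes. H2-T23, which encodes the Qa-1 chain, rose from 22.6 and 23.7 FPKM in control cells to 46.99 and 47.5 FPKM. Its log2 fold change was 0.997 (SE 0.11, limma adjusted p = 0.0405), and it was the only gene of this list past an adjusted p-value of 0.05, which 0.859% of all tested genes passed as higher and 0.43% as lower. With a fold change limit added (DEGs) these shares were 0.815% and 0.408%. H2-T24 had 11.5 and 15.8 FPKM in control cells and 26.1 and 27.4 FPKM in SUV-OE cells (log2 fold change 0.94 ± 0.17 SE, limma adjusted p = 0.0895). Cd1d1, which presents lipids, had 18.3 and 20.8 FPKM in control cells and 24.8 and 22.3 FPKM in SUV-OE cells (limma adjusted p = 0.333). Between the SUV-OE libraries, the 9 genes had ratios of replicate 3 to replicate 2 from 0.745 to 1.45, below those of the H2-Q genes.

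Of 11 peptide loading genes, 3 were higher and 1 was lower in SUV-OE without overlap, beside 25.4% and 28.4% of all tested genes. In this list 0 passed the adjusted threshold and 1 had an unadjusted limma p-value under 0.05, beside 1.29% and 20.7% of all tested genes. The 1 was Tapbp, which tethers TAP to the heavy chain. Its FPKM was 48.9 and 48.2 in control cells and 65.4 and 65.1 in SUV-OE cells (log2 fold change 0.42 ± 0.11 SE, limma adjusted p = 0.152). Calr, the chaperone of highest expression on the list, had 617 and 694 FPKM in control cells and 656 and 712 FPKM in SUV-OE cells. Hspa5, an endoplasmic reticulum chaperone, had 293 and 261 FPKM in control cells and 157 and 232 FPKM in SUV-OE cells (limma adjusted p = 0.296).

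The immunoproteasome replaces the catalytic subunits of the constitutive proteasome and favours peptides that bind class I chains. Of its 5 listed genes, 0 passed the adjusted threshold and 1 had an unadjusted limma p-value under 0.05, beside 1.29% and 20.7% of all tested genes. Psme1 and Psme2, of the activating cap, had log2 fold changes of -0.01 and 0.03. The gene at the unadjusted threshold was Psmb9, with 21.0 and 22.3 FPKM in control cells and 27.2 and 29.9 FPKM in SUV-OE cells (log2 fold change 0.38, limma adjusted p = 0.177). The 4 genes of the constitutive proteasome list had log2 fold changes from -0.70 to -0.29, with SUV-OE below control without overlap in all 4, as in 28.4% of tested genes, although 0 passed the adjusted threshold and 2 had an unadjusted limma p-value under 0.05. The gene at -0.29 was Psme3 (limma adjusted p = 0.452), which is not a catalytic subunit. Psmb7 was at -0.70 ± 0.15 (SE, limma adjusted p = 0.103), Psmb6 at -0.49 (limma adjusted p = 0.155) and Psmb5 at -0.37 (limma adjusted p = 0.316). As a ratio to the constitutive subunit that each replaces, Psmb9 to Psmb6 was 0.2998 and 0.308 in control cells and 0.582 and 0.550 in SUV-OE cells. Psmb8 to Psmb5 was 0.545 and 0.577 in control cells and 0.799 and 0.730 in SUV-OE cells, and Psmb10 to Psmb7 was 1.90 and 2.31 in control cells and 3.68 and 3.80 in SUV-OE cells. In all 3 pairs the ratios did not overlap between groups. Psmb8 and Psmb10 themselves overlapped, with log2 fold changes of 0.07 and 0.10, so that in these pairs the constitutive subunit carried most of the difference in the ratio.

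**Figure D5:**
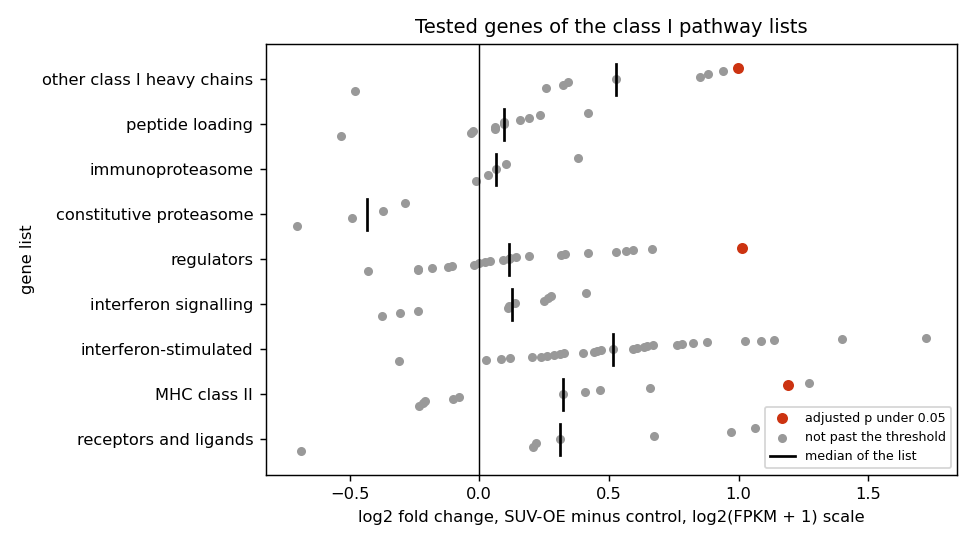
Log2 fold change (SUV-OE minus control) of each tested gene in 9 lists of the class I pathway, one point per gene, with the median of each list (bar). The genes with a limma adjusted p-value under 0.05 (red) are H2-T23, Irf8 and Cd74, and the 4 genes of the constitutive proteasome list lie below 0.

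Among 24 listed regulators of class I genes, 23 were tested and 1 passed the adjusted threshold, beside 1.29% of all tested genes. At an unadjusted limma p-value under 0.05, 7 were higher and 1 was lower, beside 10.3% and 10.4%. Without overlap, 11 were higher and 4 lower in SUV-OE, beside 25.4% and 28.4%. Irf8, an interferon regulatory factor of monocytes, dendritic cells and B cells, rose from 5.22 and 5.01 FPKM in control cells to 11.6 and 11.04 FPKM (log2 fold change 1.01 ± 0.11 SE, limma adjusted p = 0.0405). The factors of the promoter complex that Nlrc5 joins, Rfx5, Rfxap and Rfxank, had log2 fold changes of 0.09, -0.12 and 0.11. Ciita, the class II counterpart of Nlrc5, stayed at or under 0.0856 FPKM and was not tested. Suz12 of Polycomb repressive complex PRC2 had a value of -0.18 (limma adjusted p = 0.451) and Trim28 of -0.11 (limma adjusted p = 0.795).

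Of 10 tested interferon receptors, kinases and inhibitors, 0 had an adjusted and 0 an unadjusted limma p-value under 0.05, beside 1.29% and 20.7% of all tested genes. Ifngr1 was at 197 FPKM in each control sample and 155 and 163 FPKM with SUV-OE, and Jak1 had 24.9 and 22.4 FPKM in control cells and 28.7 and 27.9 FPKM in SUV-OE cells. Usp18 and Socs1, feedback inhibitors, had log2 fold changes of 0.41 (limma adjusted p = 0.310) and -0.37 (limma adjusted p = 0.336). Of 36 interferon-stimulated genes, 29 were tested. The median log2 fold change of these 29 was 0.51, and 22 were higher in SUV-OE without overlap, while 1 was lower, beside 25.4% and 28.4% of all tested genes. By limma 0 passed the adjusted threshold, and 19 had an unadjusted limma p-value under 0.05, of which 18 were higher, beside 10.3% of all tested genes higher and 10.4% lower. With limma-voom on the recovered reads, which tested 35 genes of this list, 18 passed the adjusted threshold, all higher, and 14 of these were among the 29. Over all 14268 genes in that fit, 5.72% were called higher and 1.36% lower. Their median log2 fold change in that fit was 0.08, beside -0.02 over all genes tested by limma. Ifi27 and Bst2, of highest expression among them, had values of 0.20 (limma adjusted p = 0.589) and 0.26 (limma adjusted p = 0.368). Gbp2, an interferon-induced GTPase, had 1.12 and 0.707 FPKM in control cells and 3.27 and 4.90 FPKM in SUV-OE cells (log2 fold change 1.40 ± 0.22 SE, limma adjusted p = 0.0718). Ifitm3 had 5.76 and 14.9 FPKM in control cells and 30.8 and 36.0 FPKM in SUV-OE cells (log2 fold change 1.72 ± 0.42 SE, limma adjusted p = 0.134).

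In the class II list, 11 genes were tested and 1 passed the adjusted threshold, beside 1.29% of all tested genes. At an unadjusted limma p-value under 0.05 were 3, all higher, beside 10.3%, and without overlap 5 were higher and 3 lower, beside 25.4% and 28.4%. Cd74, the invariant chain, rose from 1.35 and 1.39 FPKM in control cells to 3.96 and 4.91 FPKM (log2 fold change 1.19 ± 0.15 SE, limma adjusted p = 0.0488). H2-Ob had a log2 fold change of 1.27 (limma adjusted p = 0.0596), while H2-DMa and H2-DMb1, the class II genes of highest expression here, had values of -0.21 and -0.08. Of 7 tested receptors of class I molecules and ligands of immune cells, 0 passed the adjusted threshold, beside 1.29% of all tested genes, and 5 had an unadjusted limma p-value under 0.05, 4 higher and 1 lower, beside 10.3% and 10.4%. Pirb, an inhibitory receptor that binds class I molecules, had 2.79 and 3.91 FPKM in control cells and 7.84 and 8.22 FPKM in SUV-OE cells (log2 fold change 1.06 ± 0.17 SE, limma adjusted p = 0.0678). Raet1d, a ligand of an activating NK cell receptor, had 0.0357 and 0.165 FPKM in control cells and 1.25 and 1.05 FPKM in SUV-OE cells (limma adjusted p = 0.0872). Cd47 and Ulbp1 had values of 0.21 (limma adjusted p = 0.503) and 0.31 (limma adjusted p = 0.223).

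In all, 3 of the 109 tested pathway genes outside the 10 passed the adjusted threshold, all higher in SUV-OE, and 44 had an unadjusted limma p-value under 0.05, beside 1.29% and 20.7% of all tested genes. Their median log2 fold change was 0.25, beside -0.02 over all tested genes, and 82 of the 109 were higher, beside 47.0% of all tested genes. With limma-voom on the recovered reads, 31 of 121 pathway genes passed, 30 higher and 1 lower, beside 5.72% and 1.36% of all genes in that fit. These 31 included the 3 and the 18 interferon-stimulated genes. The limma-voom fold changes lay higher in general, with a median of 0.08 over all genes in that fit. In limma fits that left out 1 library, 0 passed and 18 to 49 had an unadjusted p-value under 0.05. Cd74 alone was lost after quantile normalization or with a pseudocount of 0.1, which left 2.

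Markers of several other cell types also differed between the groups, and the counts here stand beside 25.4% of all tested genes that were higher without overlap and 10.3% higher at an unadjusted p-value under 0.05. Of 8 tested B-lymphoid markers, 7 were higher in SUV-OE without overlap, 0 passed the limma adjusted threshold (7 at an unadjusted p-value under 0.05), and their SUV-OE replicate 3 to replicate 2 ratios ran from 1.36 to 3.72. Replicate 3 was the higher one in 8 of 8 B-lymphoid markers, 7 of 8 neutrophil markers, 5 of 5 immunoproteasome genes and 25 of 29 interferon-stimulated genes, beside 6901 of 13618 tested genes. It was the higher one in only 3 of 8 macrophage, 3 of 7 leukemic progenitor, 1 of 7 erythroid and 0 of 2 dendritic markers. The same held for 5 of 11 class II, 4 of 10 interferon signalling and 3 of 7 receptor and ligand genes. Ms4a1 was at most 0.0287 FPKM in every library. The summed FPKM of the 9 markers was 18.5 and 27.6 in control cells and 36.4 and 81.2 in SUV-OE cells, of which Cd79b, at 17.2 to 25.01, made up a large part. All 8 neutrophil markers were higher in both SUV-OE libraries, with summed FPKM of 727 and 2335 in control cells and 6532 and 7951 in SUV-OE cells, and Ltf passed (limma adjusted p = 0.0434). Of 8 tested macrophage markers, 7 did not overlap and were higher, with sums of 87.0 and 111 in control cells and 148 and 143 in SUV-OE cells. For erythroid markers, 4 of 7 did so, with sums of 12.2 and 114 in control cells and 84.1 and 58.8 in SUV-OE cells. The endothelial list rested on Pecam1, its 1 tested gene, which rose from 16.7 and 23.3 to 70.3 and 64.1 (limma adjusted p = 0.0405). Tek, Kdr, Emcn, Cldn5 and Cdh5 were at or under 0.848 in every library and were not tested. At these low levels Tek, Kdr, Emcn and Cldn5 were higher in SUV-OE without overlap, and Cdh5 overlapped. T cell genes Cd3d, Cd3e and Cd3g were at most 0.298 in every library, and the dendritic genes Siglech, Xcr1, Clec9a and Zbtb46 at most 0.205. The dendritic list's 2 tested genes were Itgax, with 1.06 FPKM in each control library and 4.52 and 2.998 FPKM in SUV-OE cells (log2 fold change 1.19 ± 0.20 SE, limma adjusted p = 0.0782), and Clec10a, with overlapping values from 0.532 to 1.57 FPKM. The T and NK list summed to 75.1 and 114 in control cells and 77.2 and 84.3 in SUV-OE cells, nearly all of it Nkg7, while Lck was lower and Ncr1 and Klrb1c were higher in SUV-OE without overlap. The dendritic list summed to 1.72 and 2.49 against 6.53 and 4.49, and the stromal list to 9.55 and 8.85 against 10.2 and 6.97. The leukemic progenitor list summed to 515 and 504 in control cells and 466 and 505 in SUV-OE cells, mostly from Mpo. Of its 7 genes, 4 were higher (Kit, Ptprc, Itgam and Meis1) and 2 were lower (Mpo and Hoxa9) in SUV-OE without overlap. The part of these cells in the class I values was not tested.

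The 5 tested genes whose centred profile over the 4 libraries lay nearest to the median profile of the 10 were Gm12057, 1700122H20Rik, Il7r, Gm25747 and Tmem176b, at Euclidean distances from 0.0842 to 0.164 on the log2 scale. Il7r, a lymphoid cytokine receptor gene, had 0.465 and 0.425 FPKM in control cells and 1.44 and 2.45 FPKM in SUV-OE cells. Tmem176b had 0.954 and 1.07 FPKM in control cells and 2.47 and 3.63 FPKM in SUV-OE cells. All 4 libraries entered the choice, so the likeness is a description.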

How the data were processed

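RNA was measured in 4 libraries of c-Kit+ cells (2 control, 2 SUV-OE). Per the paper and the submitters' processing notes, TruSeq v2 libraries were sequenced as 150-base paired ends, and reads were processed with CASAVA 1.8 and TopHat2 on mm10. The authors deposited FPKM, said to come from Cufflinks; the annotation release is not given in the sources used here. Symbols and exon lengths came from GENCODE M21 (23438 of 23552 IDs matched).

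Genes averaging 0.5 FPKM or more (13736) were kept, and log2(FPKM + 1) was fitted in limma 3.58.1 (R 4.3.3) with an intensity trend and group as the only term, and p-values were adjusted over all of them by Benjamini-Hochberg. DEGs passed 0.05 after adjustment with a change of 1 or more on the log2 scale. The labels name replicates and not mice, so p-values measure only the spread between these libraries. Reads were recovered from FPKM steps, and for 78.5% of genes all 4 values were whole within 0.01. The limma-voom fit took the GENCODE M21 length for every gene, so its input was not whole reads for the others, among them H2-K1 and Nlrc5. Intervals cover counting error only. Promoter sequences were taken from RefSeq. The genes and lists were chosen with earlier results of these data known. Genes named are the 10, pathway genes past the threshold or among the 2 of highest level or largest change in their list, non-overlapping coding neighbours and nearest profiles; any other gene was picked with its values in view. Some genes under these rules are not reported here. The motif letters were cut from the promoters of H2-K1, H2-Q4 and B2m. Alternatives were another pseudocount, filter, scaling or variance model, limma-voom, and leaving out each library. Figures were drawn with matplotlib 3.10.9.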

Additional observations from a re-analysis of the deposited data

How the results depend on the processing

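No paired analysis was possible because replicate number 3 alone occurs in each group. Among the 10 genes the log2 fold change of Tap2 changed sign. Values moved by over 1.5 times in Nlrc5 (1.03, 1.59 with a pseudocount of 0.1 and 1.79 with limma-voom), and with 1 library left out in H2-K1 (0.35 without SUV-OE replicate 3), H2-D1 (0.17 without control replicate 4, 0.58 without control replicate 3, 0.20 without SUV-OE replicate 3) and B2m (0.15 and 0.88 without control replicates 3 and 4, 0.84 and 0.19 without SUV-OE replicates 2 and 3). H2-Q5 ranged from 1.92 to 3.08, H2-Q6 from 2.41 to 3.47 and H2-Q7 from 1.96 to 3.42, each highest with limma-voom. For the 7 genes whose groups did not overlap, leaving out a library could not turn the direction. The median of the 10 was 0.83, 1.14 with limma-voom on recovered reads, and from 0.52 to 1.14 with 1 library left out. Over all tested genes the median was -0.02, and 0.08 with limma-voom. Pathway genes past the threshold numbered 3, 31 with limma-voom, 0 without a filter on low values (57 at an unadjusted limma p-value under 0.05) and 0 in each fit that left out 1 library, which had 18 to 49 at an unadjusted limma p-value under 0.05. DEGs among all tested genes numbered 168, 771 with limma-voom, 0 without a filter (4177 unadjusted) and 0 with 1 library left out (1166 to 3877 unadjusted). The fits without 1 library had 1 residual degree of freedom and assumed that the lone library varies like the other group. The cause of the gap between limma and limma-voom was not tested.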
